A study of Mus musculus with 2 samples.

Results

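The giant proteins of the sarcomere and their closest relatives were followed in the gastrocnemius, the large calf muscle, as 6 genes of the 55536 in the deposited gene tables and as 85 of the 141862 annotated transcripts. The 6 genes were Ttn, Neb, Nebl, Nrap, Obsl1 and Speg, taken by gene symbol. Total RNA had been sequenced from the muscle of female B6Cast F1 mice (strain B6CASTF1/J, a first-generation cross), which the labels place at 18 to 20 months of age. There was 1 group of 2 libraries, biological replicates 2 and 1, each made from 300 ng of RNA after ribosomal RNA reduction and with ERCC spike-ins, synthetic RNAs added in known amounts. No treatment, mutation or younger group was part of the design, both libraries carry the same donor identifier, and that they came from separate animals rests on the replicate labels alone. Expected counts over genes summed to 43722892 in replicate 2 and 38654555 in replicate 1.

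Titin, encoded by Ttn, spans from the Z disc to the M band, where its elastic part in the I band acts as a spring and its A band part runs along the thick filament. Nebulin, encoded by Neb, lies along the thin filament and is anchored at the Z disc, and nebulette (Nebl) is its short relative, best known from the heart. Nrap is a nebulin-related protein of the myotendinous junction and of growing myofibrils, Obsl1 encodes an obscurin-like cytoskeletal adaptor that can bind titin at the M band, and Speg encodes a muscle kinase that works at the triad, where the surface tubules meet the calcium store. Messenger RNAs of these genes are among the longest known and are heavily spliced, so a level per gene depends on which annotated transcripts the reads are shared among.

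Ttn took more reads than any other nuclear protein-coding gene. Its expected counts were 3239771 in replicate 2 and 2986241 in replicate 1, or 7.41% and 7.73% of all gene counts. Neb, with 638864 counts in replicate 2 and 654263 in replicate 1, ranked 5 among the 22015 nuclear protein-coding genes in both libraries. All 6 genes together held 9.11% of gene counts in replicate 2 and 9.64% in replicate 1. Per length the order looked different, since long transcripts collect more reads per molecule. In TPM, the share of transcripts after division by length, Ttn stood at 2582 in replicate 2 and 2627 in replicate 1 (mean 2605 ± 31.9, SD, n = 2), rank 18 and rank 19 of the nuclear protein-coding genes. Neb stood at 2424 TPM in replicate 2 and 2924 TPM in replicate 1 (2674 ± 354). Which of the pair was higher thus depended on the library.

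The 4 relatives formed a descending series far below. Nrap had 439 TPM in replicate 2 and 399 TPM in replicate 1 (419 ± 28.2), rank 106 and rank 97. Speg had 112 TPM in replicate 2 and 121 TPM in replicate 1 (117 ± 5.85). Obsl1, at 13.1 TPM in replicate 2 and 17.2 TPM in replicate 1 (15.2 ± 2.86), rested on 1637 and 1432 counts. Nebl was close to the detection limit, with 14 counts (0.14 TPM) in replicate 2 and 23 counts (0.47 TPM) in replicate 1. Each neighbour from Neb down to Nebl differed by more than the spread of the 2 libraries, whereas Ttn and Neb did not.

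**Figure D1:**
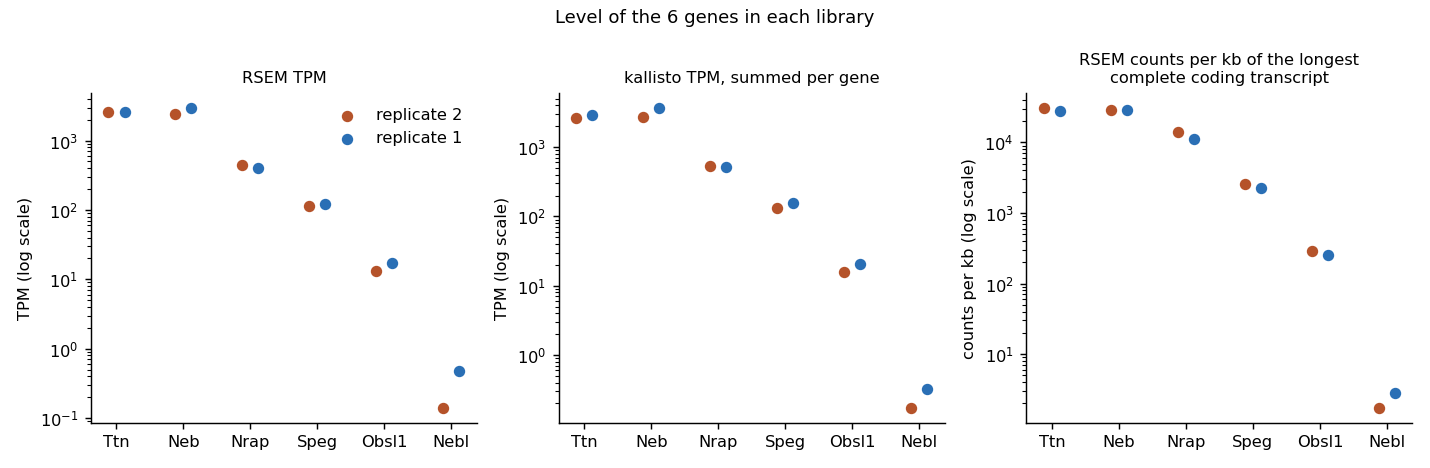
Level of each gene in replicate 2 (brown, left of each pair) and replicate 1 (blue, right), on log axes, as RSEM TPM, as kallisto TPM summed per gene, and as RSEM counts per kb of the gene's longest complete coding transcript. The order below Ttn and Neb is the same on all 3 scales, and Ttn and Neb lie close together on each.

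The distance between the genes depended on the scale more than on the library. By kallisto, a second quantifier, Ttn was at 2636 TPM in replicate 2 and 2952 TPM in replicate 1, below Neb at 2676 TPM and 3629 TPM in the same libraries. Counts per kb of the longest complete coding transcript put Ttn at 30328 in replicate 2 and 27955 in replicate 1, and Neb at 28408 in replicate 2 and 29093 in replicate 1. On this scale the mean of Neb was 2.28 times that of Nrap, against 6.39 times in TPM. Many short, incomplete transcript models carry TPM of Ttn and Neb, and none is annotated for Nrap. When only complete coding transcripts were summed, Ttn had 1156 TPM in replicate 2 and 1225 TPM in replicate 1, and Neb 902 TPM in replicate 2 and 1032 TPM in replicate 1. Levels of Ttn and Neb are therefore best read as similar to each other, with an order that changed between scales.

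Incomplete models, whose start or end the annotation marks as not found, held 53.8% of the TPM of Ttn in replicate 2 and 51.4% in replicate 1, but 5.61% and 5.09% of its counts. The median share of TPM in such models over 11744 tested nuclear protein-coding genes in replicate 1 was 0%, and 1.69% of those genes had a share at least as high as that of Ttn. For Neb the share in incomplete models was 39.8% of TPM in replicate 2 and 43.1% in replicate 1, with a further 23.0% and 21.6% in noncoding models. Complete coding transcripts of Neb held 87.9% of its counts in replicate 2 and 87.3% in replicate 1. Nrap stood at the other end, with 99.8% of TPM in complete coding transcripts in both libraries.

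Titin (ENSMUSG00000051747) lies on the minus strand of mouse chromosome 2 at 76703980 to 76982547 in the mm10 build, with 25 annotated transcripts. The complete models of highest RSEM TPM fall into known kinds. Ttn-205, with 313 exons and 33467 codons, omits the N2B exon and keeps the long elastic segment, the layout of the N2A titin of skeletal muscle. Its level was 610 TPM in replicate 2 and 631 TPM in replicate 1. Ttn-201, with 192 exons and 26886 codons, holds the N2B exon, a stretch of unique spring sequence, and leaps over most of the elastic segment, the layout of the N2B titin of the heart. RSEM gave it 299 TPM in replicate 2 and 326 TPM in replicate 1, whereas kallisto gave 133 TPM and 212 TPM. Both tools thus placed the skeletal layout well above the cardiac one in each library. Ttn-202, with 45 exons, is novex-3, a short titin that ends within the I band, and stood at 216 TPM in replicate 2 and 238 TPM in replicate 1.

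The jump of Ttn-201 over the elastic segment is shown as the last 30 bases of the exon they share (exon 46 of both models, chr2:76906254-76906532) in lower case and the first 30 bases of the exon that follows in capitals, on the sense strand, from the GENCODE M21 transcripts. Ttn-201 lands on exon 168 of Ttn-205 and omits 121 exons, which hold 22251 bases.
Ttn-205 junction: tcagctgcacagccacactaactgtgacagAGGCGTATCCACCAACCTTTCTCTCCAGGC
Ttn-201 junction: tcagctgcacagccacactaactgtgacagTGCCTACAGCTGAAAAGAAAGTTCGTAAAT

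The 121 exons that Ttn-201 omits had a summed transcript level, the TPM of all models that hold an exon averaged over its bases, of 798 in replicate 2 and 806 in replicate 1. The N2B exon, 2646 bases at chr2:76907308-76909953, had 302 in replicate 2 and 327 in replicate 1. Models with the N2B exon made up 27.9% of the TPM of models spanning it in replicate 2 and 30.6% in replicate 1, or 16.9% and 20.4% by kallisto. The last exon of novex-3, 6520 bases at chr2:76913944-76920463, had 216 in replicate 2 and 238 in replicate 1. These differences between exon groups were larger than those between libraries. An exon of 138 bases at chr2:76965777-76965914, exon 11 of Ttn-205 in the Z disc part, was in models with 73.3% of the spanning TPM in replicate 2 and 72.1% in replicate 1, and both Ttn-201 and Ttn-202 omit it.

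The summed level was higher at the 5′ end of Ttn than at its 3′ end in both libraries. The 12 exons of Ttn-215, a 5′ model of 2159 bases that led the gene by RSEM TPM (770 in replicate 2, 798 in replicate 1), had a mean summed level of 1883 in replicate 2 and 1983 in replicate 1. The 143 exons that Ttn-205 and Ttn-201 share after the elastic segment had 944 in replicate 2 and 991 in replicate 1. That is a 5′ to 3′ ratio of 1.99 in replicate 2 and 2.00 in replicate 1, or 1.57 in both by kallisto. The 5′ sum includes Ttn-215 itself, whose exons define that region. The 34 exons between that region and the elastic segment, which Ttn-215 does not hold, had 1161 in replicate 2 and 1225 in replicate 1. These profiles add up model estimates and are not read coverage. A group of 33 short elastic exons found in Ttn-203, the longest model, but in neither Ttn-205 nor Ttn-201, was at 90.4 in replicate 2 and 55.1 in replicate 1.

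**Figure D2:**
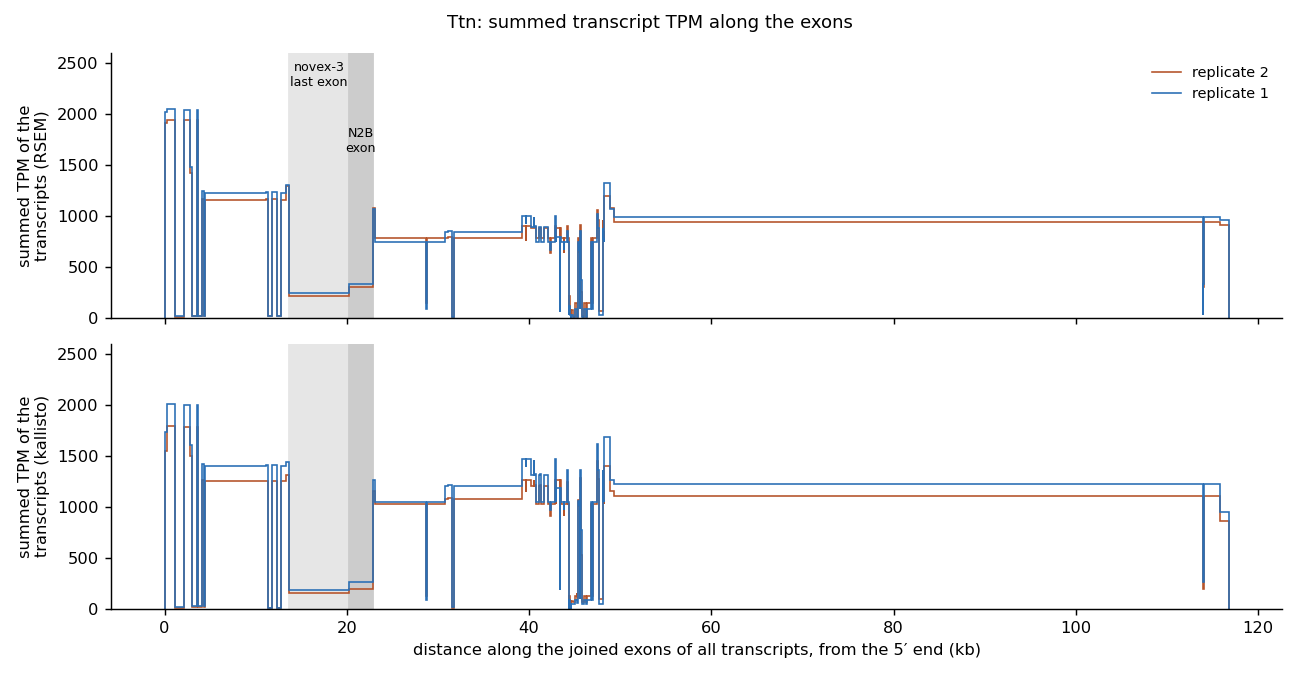
Summed TPM of all Ttn transcripts that hold each exon segment, drawn along the joined exons of all models from the 5′ end (kb), by RSEM (top) and kallisto (bottom), for replicate 2 (brown) and replicate 1 (blue). Both libraries follow each other closely, with the highest level at the 5′ end (RSEM means of 1883 and 1983 over the Ttn-215 exons) and low levels in the shaded novex-3 and N2B exons. The 5′ means include Ttn-215 itself.

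Some single models of Ttn were far less certain than these groups. Ttn-204 has the same number of codons as Ttn-205, and RSEM gave it 28.9 TPM in replicate 2 and 29.7 TPM in replicate 1, where kallisto gave 241 TPM and 275 TPM. Ttn-204 and Ttn-205 summed to 639 TPM in replicate 2 and 660.3 TPM in replicate 1 by RSEM, and 906 TPM and 967 TPM by kallisto. Ttn-218, an incomplete model, had 3.39 TPM in replicate 2 and 100.01 TPM in replicate 1 by RSEM, and 51.3 TPM and 153 TPM by kallisto. Ttn-208 had 99.5 TPM in replicate 2 and 49.98 TPM in replicate 1. Ttn-209 had 97.6 TPM in replicate 2 and 144 TPM in replicate 1, and Ttn-212 had 119 TPM and 108 TPM. Of the 40 transcripts of the 6 genes that held at least 5% of their gene's TPM by either tool, 13 differed by less than 1.5-fold between RSEM and kallisto in both libraries. Nebl, which is close to the detection limit, supplied 8 of the 40 and 0 of the 13.

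Nebulin (ENSMUSG00000026950), on the minus strand of chromosome 2 at 52136647 to 52378474, had Neb-202 as its highest complete model, with 157 exons and 7152 codons. Its level was 523 TPM in replicate 2 and 612 TPM in replicate 1. The complete models Neb-201 (3044 codons) and Neb-203 (6909 codons) had 240.2 TPM and 140 TPM in replicate 2, and 263 TPM and 156 TPM in replicate 1. The annotation holds a pair of similar exons of 93 bases each toward the 3′ end of the gene. No model carried both. Exon 148 of Neb-202 lies at chr2:52153056-52153148 and its counterpart, exon 143 of Neb-203, at chr2:52156355-52156447. They are shown on the sense strand, from the GENCODE M21 transcripts, with the 12 bases that differ in capitals, an identity of 87.1%.
Neb-202 exon: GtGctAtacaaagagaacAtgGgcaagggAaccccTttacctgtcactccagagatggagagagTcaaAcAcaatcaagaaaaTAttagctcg
Neb-203 exon: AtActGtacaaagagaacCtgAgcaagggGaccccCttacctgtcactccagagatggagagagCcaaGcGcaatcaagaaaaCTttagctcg

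Neb-206, an incomplete model whose span covers both sites, holds neither exon and was left out of the shares below. It had 271 TPM in replicate 2 and 369 TPM in replicate 1. Models with the exon of Neb-202 held 60.3% of the TPM of all models with either exon in replicate 2 and 59.7% in replicate 1. By kallisto the share was 67.4% in replicate 2 and 71.5% in replicate 1, and by counts it was 68.5% and 69.5%. Both exons were therefore used in this muscle, with the Neb-202 exon in the larger share by all 3 measures (60.0% ± 0.44 by RSEM TPM, SD, n = 2). A second choice concerned exons 82 to 85 of Neb-202, 1 block of 4 exons (729 bases) from the central super-repeats, which bind actin along the thin filament. Neb-203 skips the block. Neb-201 begins upstream of the block's last exon, holds only the first 148 of that exon's 312 bases, and was left aside. Models with that last exon held 82.9% of the remaining spanning TPM in replicate 2 and 83.2% in replicate 1, and 89.2% and 93.1% by kallisto. Blocks with the same exon lengths recur along the gene, and the identity between any pair of them was between 59.3% and 85.7% over 729 bases.

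Along the gene, the summed level of the exons chosen at both ends was above that of the middle. The 9 exons that Neb-204 shares with Neb-202 at the 5′ end had a summed level of 1404 in replicate 2 and 1673 in replicate 1. The 43 exons that follow before the model Neb-209 had 662 in replicate 2 and 768 in replicate 1. The 19 exons at the 3′ end that Neb-206 also holds had 1183 in replicate 2 and 1393 in replicate 1. These end sums include Neb-204 and Neb-206 themselves, whose exons define the regions. The middle exons are held by Neb-202 and Neb-203 alone. Just past Neb-204, exons held by Neb-202, Neb-203 and Neb-213 had 906 in replicate 2 and 1054 in replicate 1. For the 9 exons at the 5′ end the tools agreed on the sum, at 1397 in replicate 2 and 1785 in replicate 1 by kallisto, and disagreed on its parts. Neb-204, a noncoding model of 1000 bases, had 498 TPM in replicate 2 and 619 TPM in replicate 1 by RSEM, and 3.76 TPM and 353 TPM by kallisto. Neb-212, which RSEM listed at 0 in both libraries, had 283 TPM in replicate 2 and 23.9 TPM in replicate 1 by kallisto. Neb-207, also listed at 0 by RSEM, had 268 TPM in replicate 2 and 449.8 TPM in replicate 1 by kallisto.

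**Figure D3:**
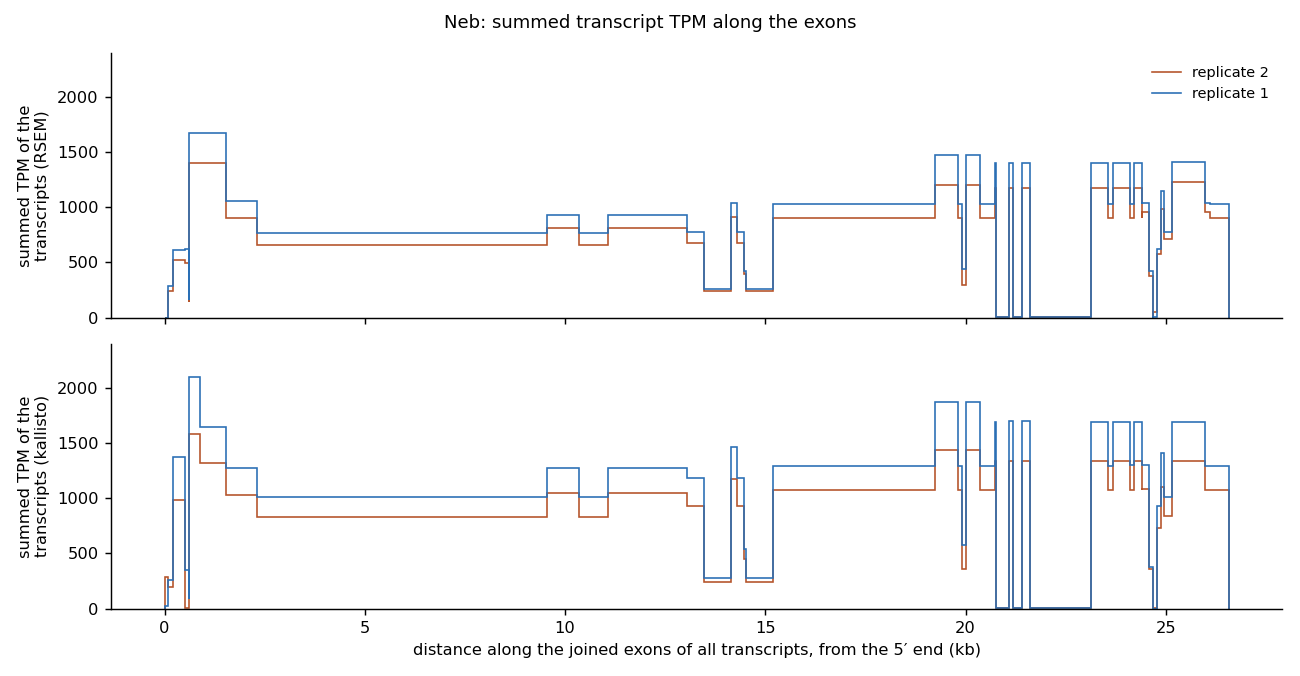
Summed TPM of all Neb transcripts that hold each exon segment along the joined exons from the 5′ end (kb), by RSEM (top) and kallisto (bottom), for replicate 2 (brown) and replicate 1 (blue). Replicate 1 lies above replicate 2 nearly throughout, and both are higher at the ends of the gene than in the middle (5′ exons at 1404 and 1673 by RSEM, middle exons at 662 and 768). The 5′ sums include the short model Neb-204, whose exons define that region.

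The remaining models that passed 5% of the TPM of Neb were incomplete. Neb-210 had 297 TPM in replicate 2 and 441 TPM in replicate 1, and Neb-206 had 271 TPM and 369 TPM. Neb-213 had 244 TPM in replicate 2 and 286 TPM in replicate 1, and Neb-209 had 152 TPM and 164 TPM. All 4 were higher in replicate 1 in TPM, as was Neb-202.

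Nrap (ENSMUSG00000049134), on the minus strand of chromosome 19 at 56320035 to 56390037, was 1 of the members whose transcript shares differed between the libraries. Exon 12, with 105 bases at chr19:56374364-56374468 that code for 35 residues, is kept in the skeletal form of the protein and skipped in the cardiac form, as known from mouse. It is shown in capitals between the last 30 bases of exon 11 and the first 30 bases of exon 13, on the sense strand, from the GENCODE M21 transcripts.
Nrap exon 12: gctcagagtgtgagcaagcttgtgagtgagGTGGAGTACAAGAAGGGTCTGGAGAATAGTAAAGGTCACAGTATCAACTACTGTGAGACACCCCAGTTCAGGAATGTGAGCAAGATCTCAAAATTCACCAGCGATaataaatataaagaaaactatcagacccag

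Nrap-202, which holds exon 12 and has 1728 codons, had 294 TPM in replicate 2 and 326 TPM in replicate 1. Nrap-201, which skips it and has 1693 codons, had 139 TPM in replicate 2 and 66.4 TPM in replicate 1. Models with exon 12 therefore held 67.3% of the TPM of Nrap in replicate 2 and 82.0% in replicate 1 (74.7% ± 10.4). Kallisto gave 77.4% in replicate 2 and 88.0% in replicate 1, lower in replicate 2 as well. After scaling, the expected counts of Nrap-201 were 2.31-fold higher in replicate 2 (95% counting interval 2.26 to 2.37), while those of Nrap-202 were 1.00-fold (0.989 to 1.01). In TPM, Nrap-201 was 2.09-fold and Nrap-202 0.903-fold in replicate 2 over replicate 1. The skeletal form was the main one in both libraries. The larger difference between libraries was on the form without exon 12, and on scaled RSEM counts it was on that form alone. Kallisto's estimated counts, not scaled, were 64499 in replicate 2 and 58393 in replicate 1 for Nrap-202. For Nrap-201 they were 13022 in replicate 2 and 5024 in replicate 1. The counting intervals leave out error in how reads are shared among models.

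The share of the leading transcript moved by at least 10 percentage points, the same way by RSEM and kallisto, in 4.88% of the 5247 genes with several transcripts and at least 1000 counts. Nrap and Obsl1 did so, and Ttn, Neb and Speg did not. For Nrap-202 the share was 14.7 points lower in replicate 2 by RSEM, at 67.1% in replicate 2 and 81.8% in replicate 1. The summed level of 9 slow fibre markers was 2951 TPM in replicate 2 and 754 TPM in replicate 1, and their part in this difference was not tested. In bulk tissue, fewer cells of a type and less RNA per cell cannot be told apart.

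**Figure D4:**
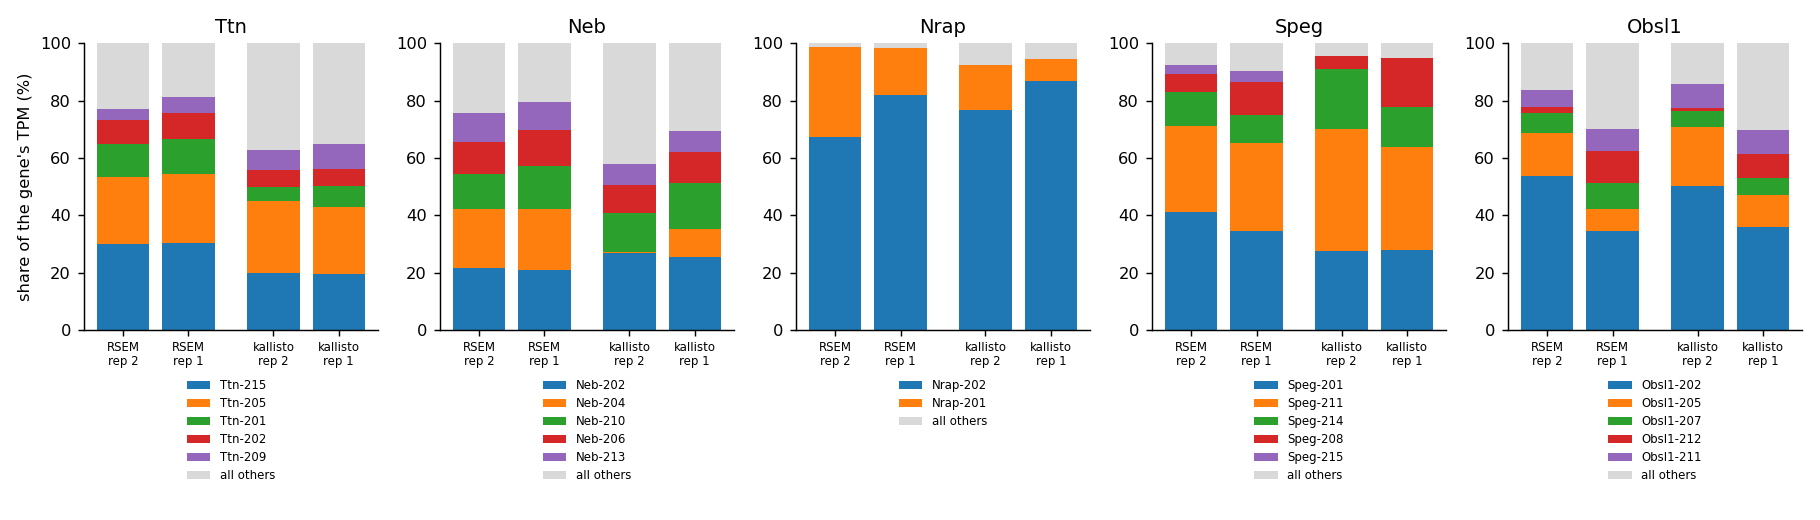
Share of each gene's TPM (%) by transcript, for RSEM and kallisto, with replicate 2 left of replicate 1 in each pair. Coloured blocks are the transcripts of highest mean TPM and grey is the sum of all others. In Nrap the block of Nrap-201 is larger in replicate 2 by both tools, and in Obsl1 that of its leading complete coding model is.

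Obsl1 (ENSMUSG00000026211) lies on the minus strand of chromosome 1 at 75479310 to 75506452. Its leading complete model (ENSMUST00000113567), with 20 exons and 1804 codons, had 7.04 TPM in replicate 2 and 5.94 TPM in replicate 1. That was 53.6% of the gene's TPM in replicate 2 and 34.6% in replicate 1, or 50.3% and 36.0% by kallisto. The 8 models annotated as retained introns held 19.6% of the TPM in replicate 2 and 44.2% in replicate 1, and 16.4% and 39.8% by kallisto. In the same 5247 genes, a noncoding share at least 10 points lower in replicate 2 by both tools was seen in 1.91%, and the opposite in 0.915%. An incomplete model of 417 codons (ENSMUST00000132252) had 2.01 TPM in replicate 2 and 1.32 TPM in replicate 1, and Obsl1-212, a retained-intron model, had 0.28 TPM and 1.94 TPM. These rest on few reads: Obsl1-212 had 5.13 expected counts in replicate 2 and 31.3 in replicate 1.

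The direction of Obsl1 depended on the unit, as did that of Ttn and Speg. The part of the transcript shift in this was not tested. In TPM Obsl1 was lower in replicate 2 by 0.39 on the log2 scale, and in scaled counts it was higher by 0.16. The total of the complete coding models, 7.35 TPM in replicate 2 and 5.94 TPM in replicate 1, went with the counts.

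Speg (ENSMUSG00000026207), on the plus strand of chromosome 1 at 75375297 to 75432320, ends 46990 bases before the lower end of Obsl1 in coordinates. It has several annotated starts. Speg-201, the complete model of 41 exons and 3262 codons with both kinase domains of the long striated muscle form, had 46.2 TPM in replicate 2 and 41.8 TPM in replicate 1. Speg-211, an incomplete model of 3009 codons that begins further in, had 34.0 TPM in replicate 2 and 36.99 TPM in replicate 1. Both together held 97.5% of the counts of Speg in replicate 2 and 96.9% in replicate 1. Kallisto put Speg-211 first, at 57.0 TPM in replicate 2 and 55.5 TPM in replicate 1, with Speg-201 at 37.0 TPM and 42.8 TPM. The order of the long models was thus not settled by these data.

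The 4 short models of 113 codons, Speg-202, Speg-203, Speg-204 and Speg-206, correspond in kind to the APEG-1 form that is best known from vascular smooth muscle. They held 5.62% of the TPM of Speg in replicate 2 and 7.38% in replicate 1 by RSEM, from 175 and 225 expected counts. By kallisto they held 2.77% in replicate 2 and 3.53% in replicate 1. The 4 models at the second start, among them Speg-214 (13.1 TPM in replicate 2 and 11.95 TPM in replicate 1) and Speg-208 (7.32 TPM and 13.6 TPM), held 21.2% of TPM in replicate 2 and 25.1% in replicate 1, but 1.67% and 1.90% of counts. Of 9 smooth muscle and mural markers, 0 were 1.5-fold apart, beside 13.7% of all tested genes. Their median log2 ratio was 0.13 (-0.093 with spike-in totals). Leaving aside Des, which muscle fibres also express, they lay between Myocd, at 0.46 TPM in replicate 2 and 0.26 TPM in replicate 1, and Rgs5, at 66.9 TPM and 52.2 TPM. Their part in the short forms was not tested.

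RefSeq (GRCm38.p6) gave 11 windows of 300 bases for 5 of the 6 genes, 4 of them for Speg. The MEF2 motif, a consensus bound by muscle-enriched MEF2 factors, was looked for on both strands and was found in the window of Ttn and in the first of Speg, while it occurs in 0.557% of all 32851 windows. The E box CANNTG, bound by myogenic factors, was in 10 of the 11 windows and in 72.3% of all. The Speg window precedes Speg-201, and the Ttn window precedes 7 models that held 74.2% of the TPM of Ttn in replicate 2 and 77.0% in replicate 1. The 250 bases before each start are shown with the MEF2 match in capitals, on the sense strand, from chr1:75375047-75375296 (plus strand) and chr2:76982548-76982797 (minus strand).
Speg first promoter: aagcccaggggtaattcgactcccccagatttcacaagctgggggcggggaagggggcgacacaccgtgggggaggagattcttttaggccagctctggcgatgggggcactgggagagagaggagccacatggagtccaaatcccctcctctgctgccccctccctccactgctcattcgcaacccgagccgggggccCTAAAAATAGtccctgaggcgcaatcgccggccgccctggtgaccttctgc
Ttn promoter: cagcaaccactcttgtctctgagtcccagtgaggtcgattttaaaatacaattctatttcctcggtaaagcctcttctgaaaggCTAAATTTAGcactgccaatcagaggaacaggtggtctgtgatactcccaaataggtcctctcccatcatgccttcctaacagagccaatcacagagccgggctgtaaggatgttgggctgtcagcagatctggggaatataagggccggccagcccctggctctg
The match begins 51 bases before the start in Speg and 166 bases before it in Ttn. A match of letters says nothing on whether a factor was bound.

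Nebl (ENSMUSG00000053702) spans 17343909 to 17731464 on the minus strand of chromosome 2. Of its 13 models, 3 had expected counts above 0 in replicate 2 and 6 in replicate 1. Most of these counts were on Nebl-201, a model of 270 codons of the LIM-nebulette kind, which is expressed outside the heart, with 12.5 expected counts in replicate 2 and 13.0 in replicate 1. Nebl-202, the full nebulette of 1014 codons, had 0 counts by RSEM in both libraries, where 3 counts would be 0.0686 CPM (counts scaled to library size) in replicate 2 and 0.0776 CPM in replicate 1. At this depth the difference between the libraries, a fold of 0.601 (95% counting interval 0.286 to 1.22), was not detectable.

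Genes that overlap the members on the opposite strand were assigned few counts by RSEM. Gm13938 over Ttn, Gm13522 over Neb and Gm15178 over Speg had 0 expected counts in both libraries, and Tmem198 over Obsl1 had 2 in each. By kallisto, Gm13522 was at 1.09 TPM in replicate 2 and 2.46 TPM in replicate 1. Whether the quantifiers were run with the strand of the libraries is not given in the sources used here, and an exchange of reads with these genes was not tested.

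For the difference between the libraries, counts were scaled by TMM, a factor that sets the bulk of genes equal, and ratios are log2 of replicate 2 over replicate 1 among the 12969 genes with at least 50 counts in both libraries summed. Of the 6 members, 5 passed that filter and Nebl did not. The log2 ratio was 0.09 for Ttn, -0.06 for Neb, 0.28 for Nrap, 0.16 for Obsl1 and 0.17 for Speg, with a median of 0.16. Of the 5, 0 were 1.5-fold apart, beside 13.7% of all tested genes (4.64% at 2-fold). A count of 0 of 5 is near that share. Nrap had the widest gap, 1.21-fold higher in replicate 2 (95% counting interval 1.20 to 1.23), and 63.7% of all tested genes had a smaller one. These intervals cover counting error only, and with 1 group of 2 libraries no test of a difference was possible.

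The sign of these small ratios rested on the scaling. With libraries scaled by spike-in totals the median ratio of all genes was -0.22, and Ttn (-0.13), Obsl1 (-0.059) and Speg (-0.051) turned negative, beside Neb at -0.29 and Nrap at 0.058. This scaling moves all genes by nearly the same amount. In TPM, Ttn (-0.025), Neb (-0.27), Obsl1 (-0.39) and Speg (-0.10) were all lower in replicate 2, and Nrap (0.14) was higher. No direction is therefore given for Ttn, Obsl1 and Speg.

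The partner genes of the giant proteins, in lists chosen with earlier results of these data known, were set beside them. Of 21 genes that bind or work with titin, all were tested, 6 were at least 1.5-fold higher in replicate 2 and 2 at least 1.5-fold lower, with a median log2 ratio of 0.10. Among all genes 7.36% were 1.5-fold higher and 6.33% lower, with a median of -0.00094. The most abundant were Actn3, the fast fibre alpha-actinin, at 4331 ± 338 TPM, Mybpc2, the fast myosin binding protein C, at 2448 ± 509 TPM, and Tcap, the titin cap at the Z disc, at 1627 ± 297 TPM (n = 2). Actn2, the other alpha-actinin that ties titin to the Z disc, was at 562 TPM in replicate 2 and 239 TPM in replicate 1. Fhl1, a LIM protein that binds the titin spring, was at 947 TPM in replicate 2 and 236 TPM in replicate 1. Myom3, an M band protein, was at 30.9 TPM in replicate 2 and 9.40 TPM in replicate 1, and the slow fibre gene Mybpc1 was at 797 TPM and 355 TPM.

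The 3 ankyrin repeat proteins of the list, which bind the titin spring, differed in their ratios. Ankrd23, the most abundant, is named after its values were seen and was at 1437 TPM in replicate 2 and 1563 TPM in replicate 1 (log2 ratio 0.03). Ankrd1 was at 0.78 TPM in replicate 2 and 14.7 TPM in replicate 1, the widest gap of the list at a log2 ratio of -4.02. Ankrd2 was at 78.95 TPM in replicate 2 and 34.4 TPM in replicate 1.

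Of 24 partners of nebulin, nebulette and Nrap, 5 were at least 1.5-fold higher in replicate 2 and 0 lower, beside 7.36% and 6.33% of all tested genes. Their median log2 ratio was 0.14. Skeletal actin Acta1 led at 22438 ± 867 TPM, with the tropomyosins Tpm1 at 11549 ± 1367 TPM and Tpm2 at 2607 ± 1753 TPM. Csrp3, a Z disc LIM protein, was at 88.7 TPM in replicate 2 and 17.3 TPM in replicate 1, and Myoz2, the slow fibre calsarcin, was at 154 TPM and 50.2 TPM. Lmod2, a leiomodin that lengthens thin filaments at the pointed end, was at 111 TPM in replicate 2 and 36.5 TPM in replicate 1. Tpm2 was at 3846 TPM in replicate 2 and 1367 TPM in replicate 1. With spike-in totals, where the median of all genes was -0.22, the median was -0.084 for this list and -0.12 for the partners of titin.

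Of 12 partners of Obsl1 and Speg, 1 was at least 1.5-fold higher in replicate 2 and 0 lower, beside 7.36% and 6.33% of all tested genes. A count of 1 of 12 is near that share. Their median log2 ratio was 0.13 (-0.087 with spike-in totals). The higher gene was Atp2a2, the slow calcium pump, at 196 TPM in replicate 2 and 46.1 TPM in replicate 1. The fast pump Atp2a1 was at 12419 ± 748 TPM, Ryr1, the calcium release channel of the triad, at 798 ± 73.1 TPM and Ank1, the small ankyrin family gene of the calcium store, at 275 ± 13.5 TPM.

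**Figure D5:**
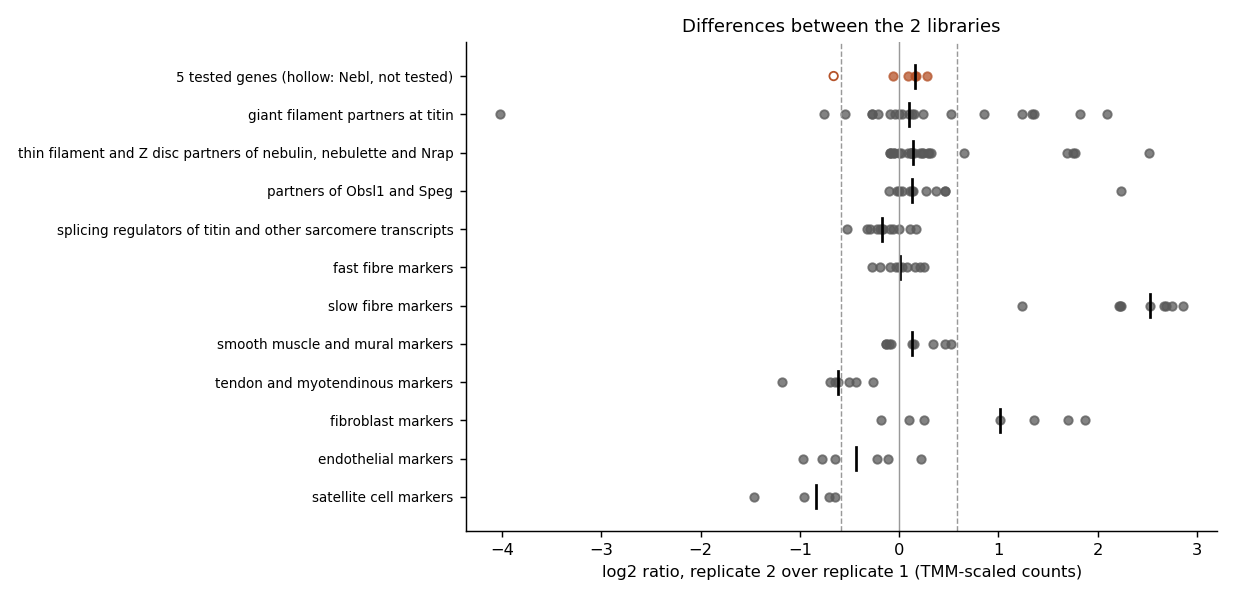
Log2 ratio of replicate 2 over replicate 1 (TMM-scaled counts) for the members (brown, Nebl hollow) and for the genes of each list (grey). Short black lines are medians, dashed lines mark 1.5-fold, and Ankrd1 is the point near -4. The 5 tested members lie between -0.06 and 0.28, and all 9 slow fibre markers lie above 1.

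Among 12 splicing regulators, 0 were 1.5-fold apart, beside 13.7% of all tested genes. A ratio below 0 was seen in 9 of them. Their median log2 ratio was -0.17 (-0.39 with spike-in totals), beside -0.00094 (-0.22) for all tested genes. Mbnl1 led at 243 ± 33.3 TPM, followed by Mbnl2 at 138 ± 9.46 TPM and Rbfox1 at 120 ± 28.1 TPM, all of them regulators of muscle exons. Rbm20, which promotes skipping of elastic exons of titin, is named after its values were seen. It was at 33.0 TPM in replicate 2 and 51.8 TPM in replicate 1. The summed level of the elastic exons that Ttn-201 omits, over that of the 3′ exons, was 0.845 in replicate 2 and 0.813 in replicate 1. By kallisto the ratio was 0.976 in replicate 2 and 0.941 in replicate 1. A link between Rbm20 and these exons was not tested.

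Markers of fibre types and of other cells set the frame for these values. The 10 fast fibre markers had a median log2 ratio of 0.01 and a summed level of 88741 TPM in replicate 2 and 97946 TPM in replicate 1. All 9 slow fibre markers were at least 2-fold higher in replicate 2, with a median of 2.53 (2.31 with spike-in totals), where 2.70% of all genes were. Myh7, the slow myosin heavy chain, was at 409 TPM in replicate 2 and 65.8 TPM in replicate 1. The list shares Mybpc1 and Atp2a2 with the partner lists. Of other cell types, 4 of 7 fibroblast markers were at least 1.5-fold higher in replicate 2, beside 7.36% of all tested genes. At least 1.5-fold lower were 4 of 4 tested satellite cell, 3 of 6 endothelial and 4 of 7 tested tendon and myotendinous markers, beside 6.33%. No marker was at 0 in both libraries. The part of these cells in the values of the members was not tested. Nrap, a protein of the myotendinous junction, was higher in replicate 2 by TMM scaling, spike-in totals and TPM. The summed tendon and myotendinous markers were at 53.3 TPM in replicate 2 and 84.7 TPM in replicate 1. Their part in the Nrap difference was not tested.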

How the data were processed

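Total RNA-seq of 2 gastrocnemius libraries was analysed. Expected counts and TPM per gene and transcript were deposited by the authors with RSEM's column names, per the file headers, and a second transcript table holds estimated counts and TPM under kallisto's. The deposited notes on each file name mm10 as its build and M21 as its GENCODE release. No source used here gives tool versions, the aligner or the strand setting. Deposited scores, the bounds of RSEM's intervals, were compared between the libraries, transcript by transcript, and are not quoted. The authors' percent per transcript was left aside in favour of percents from TPM.

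Expected counts were rounded. Genes reaching 50 counts over both libraries were scaled by TMM in edgeR 4.0.16 under R 4.3.3, with log2 CPM at a prior count of 2. DESeq2 1.42.0 gave alternative size factors. Fold intervals are exact conditional binomial intervals at 95%. They describe counting error alone, because PCR copies of a molecule cannot be recognised here. No p-value was computed. The 2 libraries differed beyond sampling noise (chi-square per degree of freedom 94.8 over 12969 genes). All 55536 gene rows matched the annotation, and 96 spike-in, 26248 tRNA and 1 phiX rows were kept out of gene totals. Reads of a cross were assigned to reference transcripts, and loss of reads from the other parental allele was not tested. The scaling was tested on simulated data.

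Members and lists were chosen with earlier results of these data known. Named by rule were all 6 members, transcripts with at least 5% of their gene's TPM in the mean of both libraries by either tool, and from each partner list the 3 genes of highest mean TPM and those at least 2-fold apart with a mean of at least 5 TPM. Other transcripts and genes were named after their values were seen. Tables were handled in Python 3.11.15 (scipy 1.17.1, pandas 2.3.3, numpy 2.4.6).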

Additional observations from a re-analysis of the deposited data

How the results depend on the processing

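No paired analysis was possible because there is 1 group. With 2 libraries, each value without 1 library is the value of the other. The median log2 ratio of the members was 0.16 as reported, -0.059 with spike-in totals and -0.10 as a ratio of TPM. The same settings turned single members round: Ttn to -0.13 and -0.025, Obsl1 to -0.059 and -0.39, Speg to -0.051 and -0.10. Members at least 1.5-fold apart numbered 1 with no count filter and 1 with kallisto counts, in both cases Nebl, against 0. The share of all genes so far apart was 13.7%, 29.8% with no filter and 8.02% with at least 500 counts.

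Rescaled to nuclear protein-coding genes, mean TPM was 5643 for Ttn, 5787 for Neb, 0.657 for Nebl, 907 for Nrap, 32.8 for Obsl1 and 253 for Speg. By kallisto it was 2794 for Ttn, 3152 for Neb, 520.3 for Nrap, 18.2 for Obsl1 and 144 for Speg. RSEM's posterior mean TPM was 2551 for Ttn and 0.905 for Nebl. In an alternative added after the data were seen, complete coding transcripts alone gave 1191 for Ttn, 967 for Neb, 6.65 for Obsl1 and 51.6 for Speg.

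The leading transcript's share was 30.1% for Ttn, 21.2% for Neb, 23.9% for Nebl, 44.1% for Obsl1 and 37.8% for Speg. For Nebl it is Nebl-209, with 0 counts in replicate 2 and 1.54 in replicate 1, which alone sets the value. By kallisto it was 19.6% for Ttn, 26.2% for Neb and 27.7% for Speg. Of expected counts it was 1.60% for Ttn, 60.3% for Neb, 72.8% for Obsl1 and 55.9% for Speg. Among complete coding transcripts alone, added after the data were seen, the leading one held 52.1% for Ttn, 58.6% for Neb, 100% for Nebl, 97.9% for Obsl1 and 85.2% for Speg. The other settings moved these values by less than the spread of the 2 libraries. Depth limits Nebl, with 37 counts in all, and single transcripts of Obsl1.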
